A study of Mus musculus with 6 samples.

Results

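Adipocyte and brown-fat genes were followed in RNA pulled down from mouse left ventricles, as a reading of fat tissue that may stay attached to a dissected heart. The set held 8 genes, Adipoq, Cfd, Ucp1, Cidea, Cidec, Plin1, Retn and Car3, chosen by name, out of 45802 gene names in the deposited tables. In RIP-seq, RNAs that come down with an antibody are sequenced, here with anti-EZH2 (the methyltransferase subunit of polycomb repressive complex 2) or normal IgG as its background. Male mice aged 10 weeks formed a Sham group and groups given angiotensin II for 4 h or 24 h (AngII 4 h, AngII 24 h), of 2 mice each, and about 100 mg of ventricle per group was lysed. The infusion ran at 1 mg/kg/min from an osmotic minipump under the skin. Sham mice received saline according to the protocol, while the labels call them untreated. The labels give the strain as C57BL/6 for 4 libraries, C57BL/7 for the AngII 4 h anti-EZH2 library and C57BL/8 for the AngII 24 h anti-EZH2 library.

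A mix of 2 RIP products made each of the 6 libraries, so that every combination of group and antibody had 1 library and no replicate. Differences are therefore given as sizes with counting intervals, and they compare libraries, not conditions. The only tests over the 3 groups were 1 of Cidea and 1 of Ppara, a gene outside the set picked after its values were seen. Values are FPKM (fragments scaled to the length of the transcript and to the size of the library) from the separate table of each library. The FPKM corresponded to between 3815577 and 7976743 fragments per library. Mitochondrial genes took between 6.72% and 31.3% of the FPKM, the highest share being in the AngII 24 h anti-EZH2 library. In bulk RNA, fewer cells of a type and less RNA per cell cannot be told apart.

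White adipocytes store triglyceride in a single large lipid droplet and secrete hormones, whereas brown adipocytes hold many small droplets and burn fatty acids to make heat. The nuclear receptor PPARG and the C/EBP factors switch on most of the genes of this set. The products fall into secreted proteins (Adipoq, Cfd, Retn), proteins of the lipid droplet (Plin1, Cidec, Cidea), the uncoupling protein of brown fat mitochondria (Ucp1) and a cytosolic enzyme (Car3). In healthy mice they are abundant in fat, and the fat around the heart and the great vessels has white and brown features.

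The genes that define fat among the 8, Adipoq, Plin1 and Ucp1, were at or next to 0 in these libraries, which goes against naming the set for fat tissue here. Whether fat was attached to the ventricles was not tested. Of 48 values (8 genes in 6 libraries) 34 were listed at 0 and 14 were above 0, and Cidea was the 1 gene with an FPKM above 1 in any library. Ucp1, Plin1 and Retn were listed at 0 in all 6 libraries. Adipoq, Cfd and Cidec were above 0 in 1 library each, Car3 in 5 and Cidea in 6. All 8 genes had the status OK in each library, and the table of the whole series held 0 in the same places. By comparison, 51.5% of the 45802 names and 27.0% of 21498 protein-coding genes were at 0 in all 6 libraries, against 37.5% of the 8. A mean above 1 FPKM was reached by 18.8% of names, 32.0% of protein-coding genes and 12.5% of the 8, and nothing particular to the set is read from these shares of 8 genes. All 12 cardiomyocyte genes were above 1 FPKM in every library.

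The promoters of the 3 genes without a read are shown first. Whether these sequences were active in any cell was not tested. The 60 bases upstream of the annotated start were taken from RefSeq (GRCm38.p6) at chr8:83290288-83290347 for Ucp1 (plus strand), chr7:79732777-79732836 for Plin1 (minus strand) and chr8:3655710-3655769 for Retn (plus strand). Each is written 5′ to 3′, and capitals mark a match to 1 of 3 motifs searched on both strands, which do not overlap here.
Ucp1: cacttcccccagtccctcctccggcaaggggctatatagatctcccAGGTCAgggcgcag
Plin1: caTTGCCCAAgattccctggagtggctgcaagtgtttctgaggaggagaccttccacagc
Retn: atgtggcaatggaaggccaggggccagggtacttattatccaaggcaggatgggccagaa
The motifs were AGGTCA, a half-site of nuclear receptors such as PPARG, TTGCNNAA, the core read by C/EBP factors, and TATAAA, 1 form of the TATA box. Other forms of the TATA box were not searched. AGGTCA was found in the Ucp1 window, and 3.40% of 32851 promoters held it in the same 60 bases. TTGCNNAA was found in the Plin1 window, against 1.74% of all promoters, and TATAAA in none of the 3 windows, against 3.92%. In the full promoter of 300 bases these letters occurred in 16.3%, 10.8% and 13.6% of promoters. A match describes letters and not a bound site, and the absence of a match says only that the letters are not in the window. The Plin1 window is upstream of the start used here, but it lies inside the gene in the GENCODE M21 annotation. There Plin1 reaches chr7:79732903 on the minus strand.

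Among the secreted proteins, Adipoq (adiponectin, ENSMUSG00000022878, chr16:23146536-23158028 in mm10, as for the genes that follow) is the classical hormone of mature adipocytes and a defining gene of fat. It measured 0.521 FPKM in the Sham anti-EZH2 library and 0 in the other 5. That value equalled 1 read of the shorter of its 2 annotated transcripts (539 nt), and the interval given in the file ran from 0 to 2.60. Adiponectin RNA was thus seen once in 31840173 fragments, without a read in any IgG library. Cfd (adipsin or complement factor D, ENSMUSG00000061780, chr10:79890853-79892656), a serine protease of the alternative complement pathway, measured 0.290 FPKM in the AngII 24 h anti-EZH2 library, again 1 read, and 0 in the other 5. Retn (resistin, ENSMUSG00000012705, chr8:3655770-3660110) was at 0 throughout. A limit of 3 reads, which a count of 0 allows, corresponded to between 0.560 and 1.17 FPKM of Retn per library, or to 0.140 FPKM over all 6 libraries.

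The lipid droplet proteins differed from each other. Plin1 (perilipin 1, ENSMUSG00000030546, chr7:79721164-79732776), which coats the droplet of adipocytes and gates its lipases, was at 0 in all 6 libraries, with a limit of 0.0550 FPKM over all of them. Cidec (fat-specific protein 27, ENSMUSG00000030278, chr6:113424634-113435760), which enlarges droplets by fusing them, measured 0.234 FPKM in the Sham anti-EZH2 library, equal to 2 reads, and 0 in the other 5. Both genes that mark the large droplet of white adipocytes were thus at or next to 0. Both Adipoq and Cidec had their reads in the Sham anti-EZH2 library, in which Plin1, Ucp1, Retn, Cfd and Car3 were all at 0.

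Cidea (ENSMUSG00000024526), a droplet protein of brown adipocytes and of lipid-secreting tissues, was the exception. It measured 3.12 FPKM in the Sham IgG library, 1.38 in the AngII 4 h IgG library and 3.00 in the AngII 24 h IgG library. With anti-EZH2 it measured 1.82 in Sham, 2.86 in AngII 4 h and 0.435 in AngII 24 h. The order of levels ran from Sham IgG, AngII 24 h IgG and AngII 4 h anti-EZH2 through Sham anti-EZH2 and AngII 4 h IgG to AngII 24 h anti-EZH2, and the file intervals of neighbours in this order overlapped. The interval of the lowest library, from 0 to 1.30, was apart from those of Sham IgG (1.44 to 4.80) and AngII 4 h anti-EZH2 (1.56 to 4.04). The values equalled 13, 7 and 11 reads with IgG and to 10, 22 and 2 reads with anti-EZH2, in the order Sham, AngII 4 h, AngII 24 h. Cidea made up 65 of the 75 reads inferred for the whole set.

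**Figure D1:**
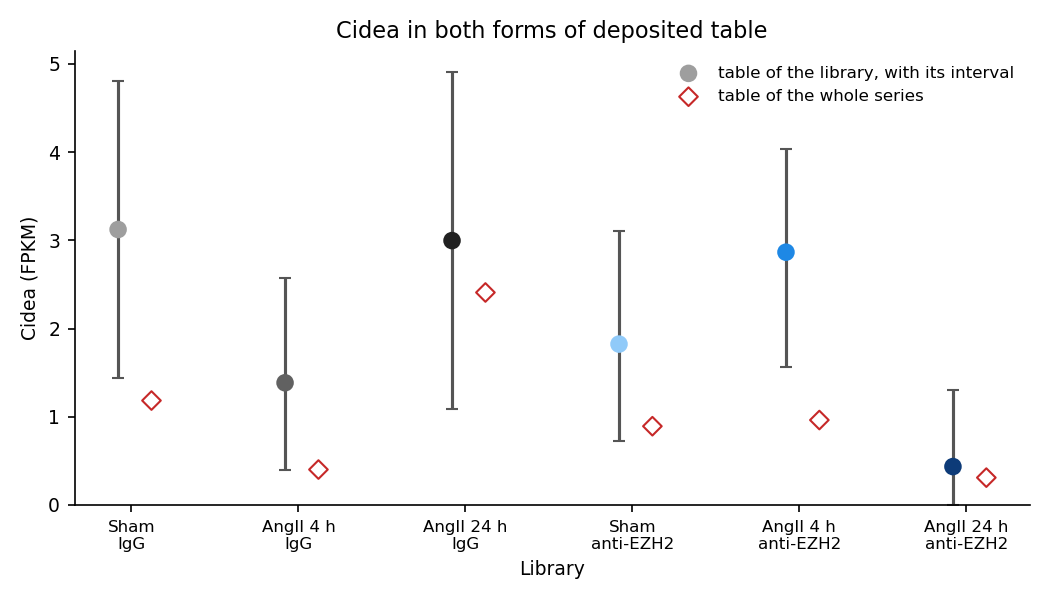
Cidea in FPKM (y axis) in each of the 6 libraries (x axis). Filled points are the table of the library with the interval that the file gives, and open red diamonds are the table of the whole series. The filled points lie between 0.435 and 3.12 and each diamond lies below the filled point of its library.

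In the table of the whole series Cidea was lower in all 6 libraries. It measured 1.18, 0.401 and 2.41 FPKM with IgG, and 0.892, 0.962 and 0.310 with anti-EZH2, in the order Sham, AngII 4 h, AngII 24 h. The highest library was then AngII 24 h IgG and the lowest was still AngII 24 h anti-EZH2. The 5′ end of Cidea overlaps B430212C06Rik, annotated on the opposite strand, by 540 nt of its locus, and whether the counting used strand is not stated in the sources used here. B430212C06Rik measured between 0 and 0.516 FPKM and was at 0 in Sham IgG, where Cidea was highest, and in AngII 24 h anti-EZH2, where it was lowest.

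Ucp1 (ENSMUSG00000031710, chr8:83290348-83298456) lets protons return across the inner mitochondrial membrane of brown adipocytes and defines that cell. It was at 0 in all 6 libraries. The limit of 3 reads corresponded to between 0.261 and 0.546 FPKM in a library and to 0.0654 FPKM over all 6. Cidea was thus above 0 in libraries in which Ucp1 was listed at 0. Car3 (carbonic anhydrase 3, ENSMUSG00000027559, chr3:14863512-14872523), a cytosolic enzyme of adipocytes and of slow skeletal muscle, measured 0.156, 0.316 and 0.220 FPKM with IgG in Sham, AngII 4 h and AngII 24 h. With anti-EZH2 it measured 0, 0.417 and 0.347 in the same groups. These values were read as the nearest whole count over the annotated transcripts. This gave 1 read in each library but AngII 4 h anti-EZH2, which had 2, and Sham anti-EZH2, which had 0. The FPKM of a single read depends on the size of the library and the length of the transcript, and the values came out whole for different annotated transcripts of the gene (1679, 1395 and 804 nt). In AngII 4 h IgG, AngII 4 h anti-EZH2 and AngII 24 h anti-EZH2, a longer transcript also came near a whole, higher count. The FPKM does not fix the Car3 reads in these libraries, nor the totals that include them.

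**Figure D2:**
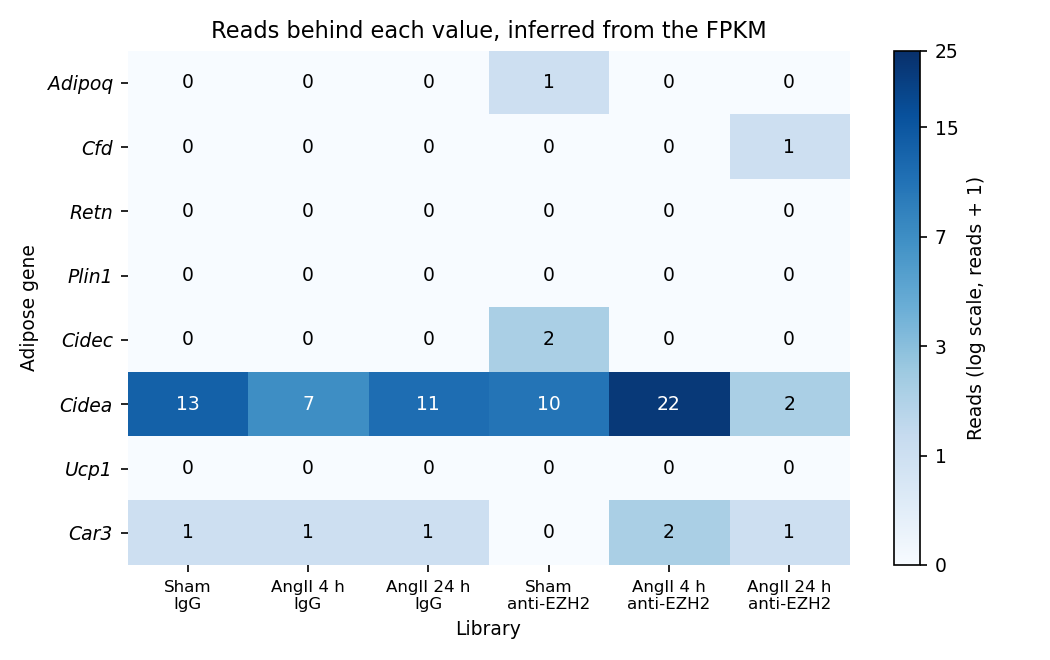
Reads behind the values of the 8 adipose genes (rows) in the 6 libraries (columns), inferred from the FPKM, with the colour on a log scale of reads + 1. The Cidea row holds 65 of 75 reads, and the other 7 rows hold 10. Counts are the nearest whole count over the annotated transcripts, and higher counts also fit some Car3 values.

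Over all 6 libraries the 8 genes had 2.36 reads per 1000000 fragments (exact 95% Clopper-Pearson interval 1.85 to 2.95). Cidea alone had 2.04 (1.58 to 2.60), and the 6 genes other than Cidea and Car3 had 0.126 (0.0342 to 0.322), from 4 reads. The set had 14, 8 and 12 reads with IgG and 13, 24 and 4 with anti-EZH2, in that order of groups. Without Cidea it had 1 read in each IgG library and 3, 2 and 2 with anti-EZH2. Counts that include Car3 use its nearest whole count, and higher counts also fit some of its values. These intervals cover counting error only, since reads without molecular identifiers are not independent molecules. No library held reads of more than 3 of the 8 genes.

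To compare libraries, genes were counted past 2-fold on log2(FPKM + 0.1), beside the share of 8632 genes with a mean FPKM above 1, a level that Cidea alone of the set reached. The pseudocount understates the change of low genes. Against a library without a read it sets the size of the ratio, and a single read can then pass 2-fold. In IgG libraries, no adipose gene was past 2-fold higher in AngII 4 h than in Sham (17.9% of all genes were) and 1, Cidea, was lower (11.4%). For AngII 24 h against Sham in IgG, no adipose gene was past 2-fold in either direction, beside 20.6% of genes higher and 10.5% lower. In anti-EZH2 libraries, Car3 was past 2-fold higher in AngII 4 h than in Sham (21.1% of genes) and Adipoq and Cidec were lower (10.5%). In AngII 24 h against Sham with anti-EZH2, Cfd and Car3 were higher (13.4% of genes) and Adipoq, Cidea and Cidec were lower (22.3%).

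In the comparison of antibodies within a group, the genes past 2-fold other than Cidea again rested on few reads. In Sham, Adipoq and Cidec were past 2-fold higher with anti-EZH2 than with IgG (14% of genes) and Car3 was lower (18.6%). In AngII 4 h no adipose gene was past 2-fold higher (12.2%) or lower (11.8%), but Cidea was at the edge, with an FPKM ratio of 2.07 that the pseudocount brought to just under 2-fold. It was past 2-fold higher under 4 alternatives, which were a pseudocount of 0.01, the series table, division by the median ratio and leaving out mitochondrial genes. In AngII 24 h, Cfd was higher (8.56%) and Cidea was lower (32.7%). Apart from Cidea, all of these genes had, by the nearest whole count, 1 or 2 reads in 1 library and 0 in the other. Of the 13590 genes with a mean FPKM above 0 and up to 1, where 4 more of the 8 lay, between 13.4% and 22.6% were past 2-fold in a direction. The median over the 8 genes was 0 in each of the 7 comparisons, beside medians between -0.58 and 0.34 (log2) over all 8632 genes, but genes without a read in either library set it to 0 and it does not show whether the set shifted. The comparisons share libraries and are not independent of each other.

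Exact intervals of the ratio of reads were drawn for each gene and comparison with at least 1 read. For the genes other than Cidea, 0 of 15 such intervals excluded 1. With 1 read against 0, as for Cfd in AngII 24 h with anti-EZH2 and IgG, the interval began at 0.0205 and had no upper end. For Cidec in Sham, with 2 reads against 0, it began at 0.143. No difference of these genes between libraries was detectable at this depth.

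For Cidea the AngII 4 h/Sham FPKM ratio was 0.444 with IgG (interval of the read ratio 0.150 to 1.20) and 1.57 with anti-EZH2 (0.713 to 3.71). The AngII 24 h/Sham ratio was 0.960 with IgG (0.389 to 2.32) and 0.238 with anti-EZH2 (0.0254 to 1.12). All 4 intervals held 1, so that no AngII change of Cidea was detectable in either kind of library. In the table of the whole series the AngII 24 h/Sham ratio with IgG was 2.04 instead of 0.960, the other 3 being 0.339, 1.08 and 0.347 in the same order (AngII 4 h with IgG, AngII 4 h and AngII 24 h with anti-EZH2).

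The anti-EZH2/IgG FPKM ratio of Cidea was 0.584 in Sham (0.230 to 1.44), 2.07 in AngII 4 h (0.854 to 5.73) and 0.145 in AngII 24 h (0.0156 to 0.666). The interval of AngII 24 h, from 2 reads against 11, excluded 1, and it was 1 of 22 intervals drawn. In that comparison the median ratio of all 8632 genes was 0.668, and relative to it Cidea was at 0.217 (0.0234 to 0.997). The file intervals of the 2 libraries, 0 to 1.30 and 1.09 to 4.90, overlapped. The AngII 24 h anti-EZH2 library also had the highest mitochondrial share (31.3%, against 13.9% in its IgG library). With mitochondrial genes left out, the count of adipose genes past 2-fold lower in this comparison stayed at 1. The part of the mitochondrial share in the size of the ratio was not tested. The table of the whole series gave 0.754, 2.40 and 0.129 for the 3 groups. With the groups taken as 3 pairs, the mean anti-EZH2/IgG difference of Cidea was -0.76 ± 1.77 on log2(FPKM + 0.1) (SD, n = 3 groups, higher in 1 of 3), with p = 0.75 in an exact two-sided sign-flip permutation test whose smallest possible p is 0.25.

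**Figure D3:**
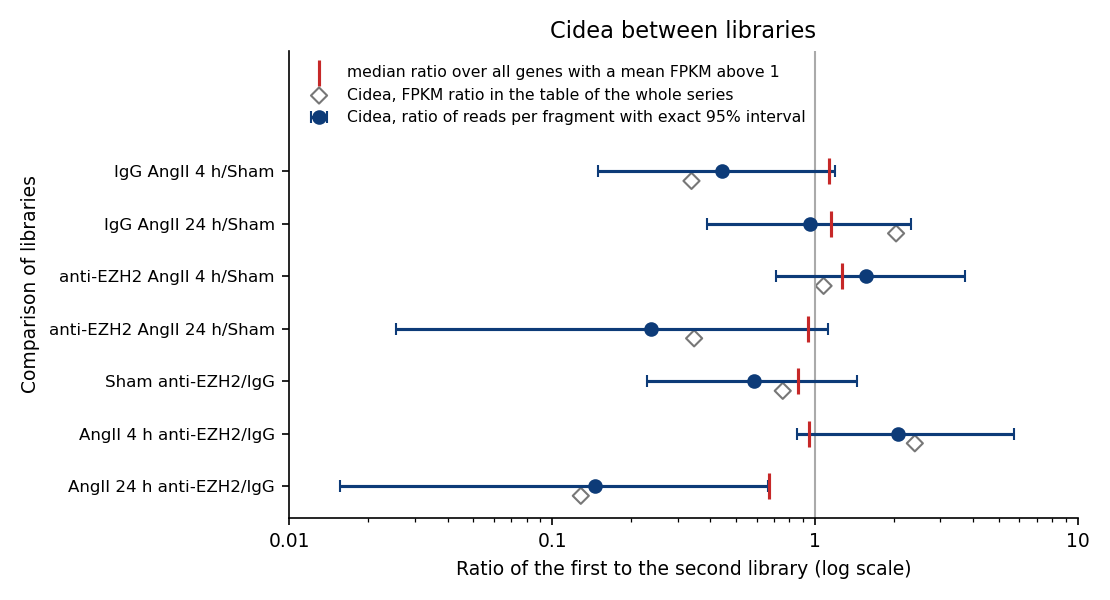
Ratio of Cidea between libraries (x axis, log scale) for the 7 comparisons (y axis). Points are read ratios with exact 95% intervals, red bars are the median ratio over 8632 genes, and open diamonds are FPKM ratios in the table of the whole series. The interval of AngII 24 h anti-EZH2/IgG, 0.0156 to 0.666, is the one that lies wholly below 1.

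Relatives of these genes, chosen after their values were known, were present in the same libraries (FPKM is per length and allows levels to be compared between genes). Ucp2, an uncoupling protein of many tissues, measured between 9.39 and 18.1 FPKM and Ucp3, that of muscle, between 1.43 and 3.73, whereas Ucp1 was at 0. Plin2, the perilipin of most cells, measured between 5.38 and 12.8 FPKM and Plin5, that of oxidative muscle, between 3.44 and 10.3, whereas Plin1 was at 0. Plin3 and Plin4 measured between 4.84 and 11.1 and between 2.50 and 6.34 FPKM. All these ranges lay above the limits of 3 reads in all libraries for Ucp1 and Plin1. The other CIDE gene, Cideb, known from liver and gut, measured between 0.256 and 1.85 FPKM.

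Among carbonic anhydrases, Car14, a membrane enzyme of the heart, measured between 6.62 and 14.6 FPKM, Car4 between 0.472 and 4.14 and Car2 between 0 and 1.98, above the Car3 value in each library except Car2 in AngII 24 h anti-EZH2. Retnlb and Retnlg were at 0 in all 6 libraries as Retn was, and Retnla, a product of alternatively activated macrophages, measured between 0 and 2.40 FPKM. The adiponectin receptors Adipor1 (7.01 to 11.5 FPKM) and Adipor2 (1.91 to 4.97) and the adiponectin-binding cadherin Cdh13 (5.52 to 15.6) were measured in every library. C1qtnf9, a paralog of adiponectin made in the heart, measured between 1.11 and 3.08. The libraries thus held the RNA of the receptors and 1 read of the hormone. Complement C3 measured between 2.82 and 9.72 FPKM, while factor B (Cfb), the substrate of the protease encoded by Cfd, was above 0 in 3 libraries.

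**Figure D4:**
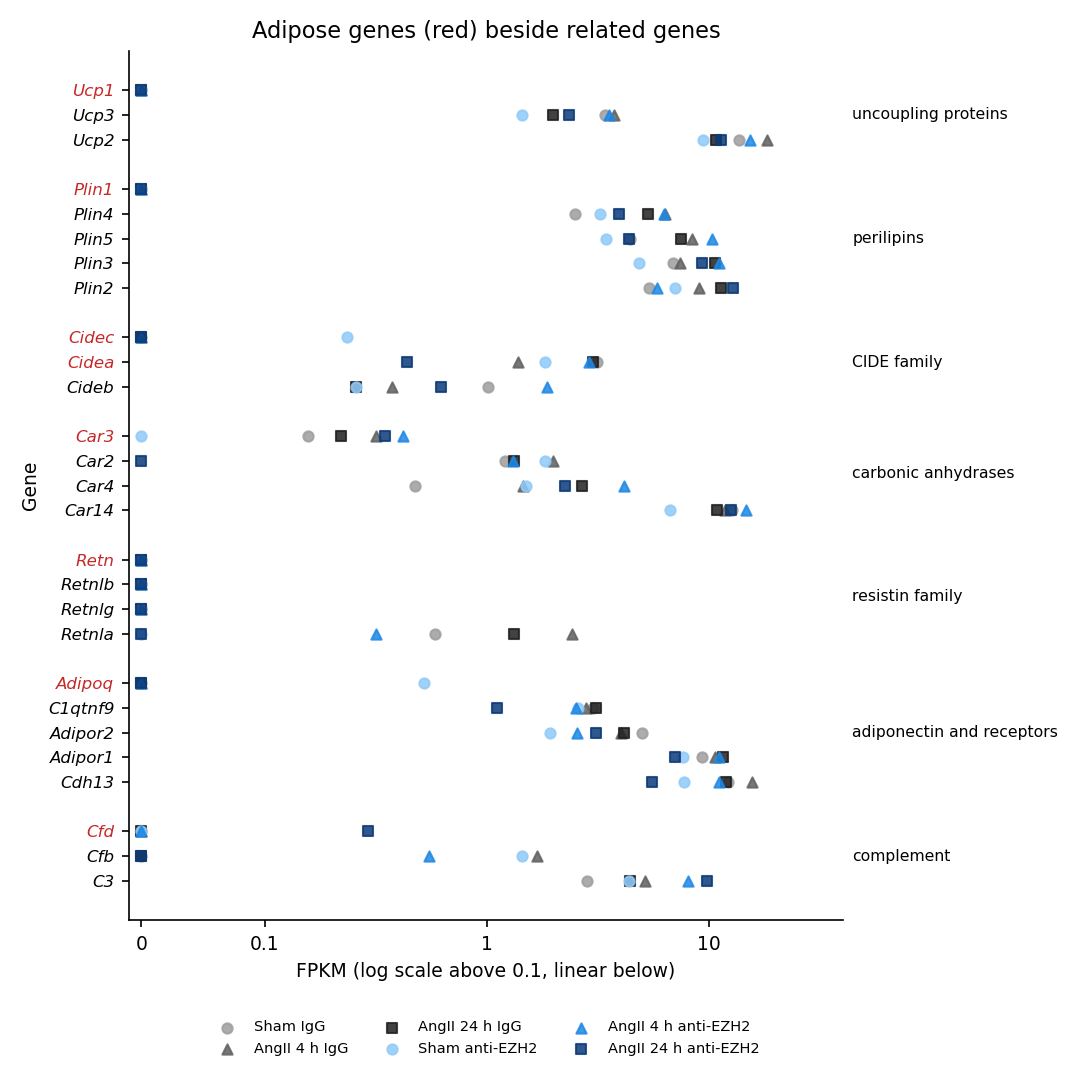
FPKM (x axis, log scale above 0.1 and linear below) of the adipose genes (red names) and related genes (black names) in the 6 libraries, with overlapping points at 0. Ucp1, Plin1 and Retn lie at 0 in all libraries, and Ucp2, Plin2 and Adipor1 lie above 5 FPKM in each.

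A list of 30 other genes of white adipocytes held genes that heart muscle and its capillaries also use and genes that they hardly use. The highest were Lpl (lipoprotein lipase, 116 to 191 FPKM), Cd36 (a fatty acid transporter, 55.8 to 100.0), Fabp4 (the fatty acid binding protein of adipocytes and capillary endothelium, 38.4 to 70.6) and Acsl1 (an acyl-CoA synthetase, 16.0 to 64.7). These 4 serve fatty acid uptake in heart and fat alike, and they stood beside Adipoq and Plin1 at or next to 0. Lep (leptin) and Pnpla3 were at 0 in all 6 libraries, and Pparg, the master regulator of fat, measured between 0.267 and 1.04 FPKM. Adrb3 and Trarg1 measured at most 0.00242 and 0.202 FPKM. Other genes of the list were higher. Thrsp measured between 1.56 and 5.31 FPKM and Gpd1 between 1.39 and 7.31. Mrap measured between 0 and 1.72 FPKM and Adig between 0 and 1.62. In all, 15 of the 30 were above 1 FPKM in every library, and 2 were at 0 throughout.

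A list of 22 brown adipocyte genes was similarly mixed. Fabp3 (232 to 442 FPKM), Cox7a1 (192 to 408) and Cox8b (193 to 432), a fatty acid binding protein and cytochrome oxidase subunits of heart and muscle, and Cpt1b (28.0 to 64.7), the muscle carnitine palmitoyltransferase, were the highest. Elovl3, a fatty acid elongase that defines brown fat with Ucp1, was at 0 throughout, and Dio2, the deiodinase of brown fat, measured at most 0.0727 FPKM. Slc36a2, also on the list and named after its values were seen, was above 0 in all 6 libraries, between 0.394 and 1.37 FPKM. Ebf2 and Prdm16, regulators of brown fat identity, measured between 0.111 and 0.790 and between 0.231 and 2.34 FPKM. Zic1 measured 2.36 FPKM in the Sham IgG library and at most 0.0994 in the other 5. Cidea was highest in the same library (3.12 FPKM), but it was nearly as high in AngII 24 h IgG (3.00), where Zic1 measured 0.0994. In all, 8 of the 22 were above 1 FPKM in every library and 5 were at 0 throughout.

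Markers of the other cells were read in the same way. The 12 cardiomyocyte genes were led by Myl2 (2114 to 3934 FPKM), Mb, Tnni3 and Myl3, and Myh6 measured between 526 and 1050. The summed FPKM of the 8 adipose genes was between 1.07 and 3.28 per library, against 6557 to 11480 for the cardiomyocyte list. All 7 endothelial genes (led by Pecam1, Cdh5, Vwf and Emcn), all 8 fibroblast genes (led by Dcn, Col3a1, Col1a1 and Dpt) and all 5 erythroid genes (led by Hbb-bs, Hba-a2, Hba-a1 and Hbb-bt) had a mean above 1 FPKM, beside 1 of the 8 adipose genes. The leukocyte list had 2 of 8 such genes, and it was led by Lyz2, Csf1r, Cd68 and Ptprc. The 8 genes of mesothelium and epicardium, the layer next to cardiac fat, had no mean above 1 FPKM, and the highest, Wt1, Upk3b, Msln and Krt8, measured at most 0.772.

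Skeletal muscle, where Car3 is abundant, was covered by 15 genes, of which 4 had a mean above 1 FPKM. Ckm (99.8 to 196 FPKM) and Acta1 (13.6 to 54.8) are shared with heart muscle, and Casq1 measured between 0.531 and 4.23. Myh4, a fast myosin that defines skeletal muscle, measured at most 0.153 FPKM, and Tnnt3 was at 0 throughout. Mylpf measured 34.7 FPKM in the AngII 24 h IgG library, 0.371 in AngII 24 h anti-EZH2 and 0 in the other 4. By the nearest whole count, Car3 had 1 read in both AngII 24 h libraries.

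**Figure D5:**
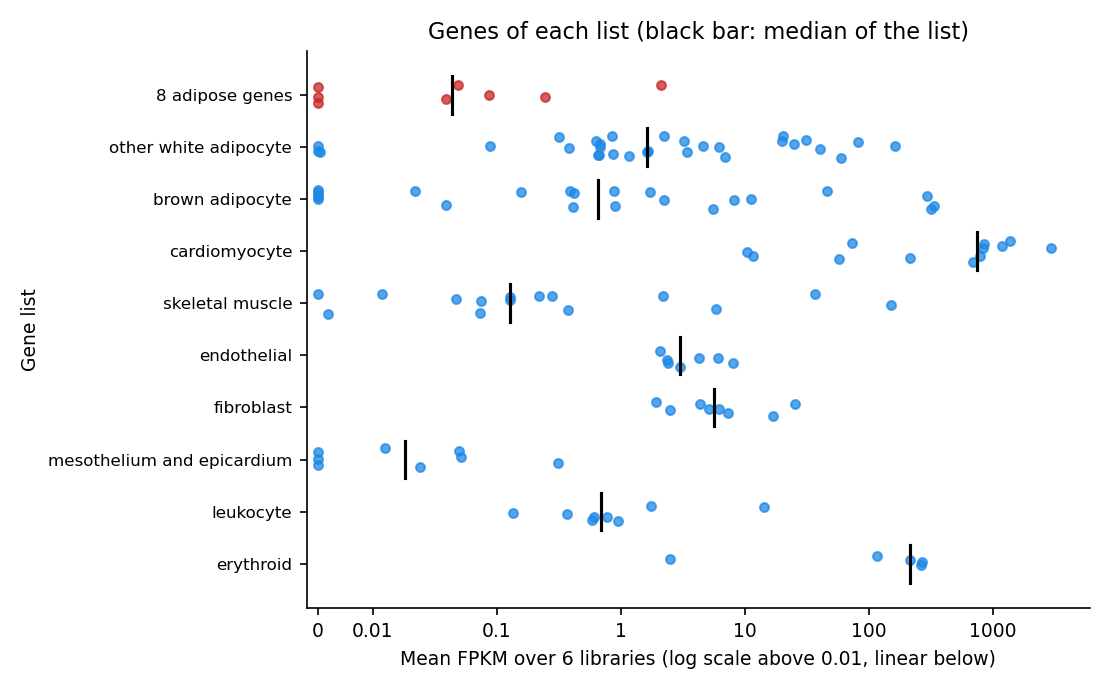
Mean FPKM over the 6 libraries (x axis, log scale above 0.01 and linear below) of each gene in 10 lists (y axis), with a black bar at the median of the list. The median of the 8 adipose genes is 0.0436 FPKM, that of the cardiomyocyte genes 735.

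The genes with the pattern most like that of the set were ranked by the root mean square difference of centred log2(FPKM + 0.1) over the 6 libraries, among 8631 genes. The mean profile of the 8 genes varied by 0.34 (log2) between its highest and lowest library. Ppig was nearest to it (0.05), followed by Rnf139, Wsb2, Magi3, Hsp90aa1, Ogfrl1, Gm11878, U2af2, Ttn and Man2a2, the last at 0.13. Near such a flat profile, the ranking gave genes with similar levels in all libraries. The profile of Adipoq was set by its 1 read, and Ppp1r10, Tlk2, Xpnpep1, Chka and Gm15800, all highest in Sham anti-EZH2, were the nearest at 0.37 to 0.41. Ucp1 was flat at 0 and had no ranking. For Cidea, a ranking added after its values were seen, Ppic, 1810043H04Rik, Gm9104, Creld2 and AC034285.3 were the nearest, at 0.07 to 0.23. No adipocyte gene of the lists was among the few genes named by these rankings. Nothing is read from this, since only genes with a mean FPKM above 1 were ranked. The white and brown adipocyte lists had 26 such genes.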

How the data were processed

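RIP-seq libraries had been made with a stranded kit, sequenced and mapped by the authors to the mouse genome (mm10) with TopHat2, per the submitters' processing notes and the paper. The authors deposited FPKM values, in a separate table of each library (46165 rows, with an interval for each FPKM) and in a table of the whole series. Neither the quantification program nor its annotation is given in the sources used here. The table of Sham IgG had 27 altered gene names, which were restored by identifier. The separate tables were the main source, and values were compared between libraries as the authors scaled them.

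The 8 genes and the lists were chosen with earlier results of these data known. The genes named were the 8, the 4 highest of each list with its defining genes, and the genes nearest in pattern, 10 for the set and 5 each for Adipoq and Ucp1. The lists of relatives, the Cidea ranking and the genes singled out as at 0, as high in 1 library or in the closing observations were chosen after their values were seen. Names were matched to GENCODE M21, with 45058 found by identifier. One relative is not reported here. The promoter table held 6 of the 8 genes (7 promoters).

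Reads were inferred from the FPKM with a fragment length model (mean 200 nt, SD 80 nt, shortest 34 nt), the modal low value being 1 read. Within 0.1 reads, between 55.6% and 60.6% of low values were whole per library (13478 values in all), where 20% would be by chance. All 14 values of the set were within 0.0323 reads of a whole number. For genes with several transcripts this took the transcript that gave the nearest whole number, which raises the chance of a match. Another transcript can also give a near-whole count, as for Car3, so such counts are not unique. Where the ends of a gene with 1 transcript differed from the annotation, those of the file were used, a choice made after Cidea was seen. Over 905 such values 75.9% were whole with the ends of the file and 46.0% with the annotated length. The total of fragments was inferred the same way. Exact Clopper-Pearson 95% intervals covered counting error of 2 libraries only.

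Past 2-fold was counted on log2(FPKM + 0.1). The alternatives were pseudocounts of 1 and 0.01, the series table, division by the median ratio, leaving out mitochondrial genes, 3-fold, file intervals apart and no filter on low values. The share among low genes, the zeros of the series table and the pairing of antibodies by group were added after seeing the data. Scripts were tested on simulated data and ran under Python 3.11.15 with scipy 1.17.1, pandas 2.3.3, matplotlib 3.10.9 and numpy 2.4.6.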

Additional observations from a re-analysis of the deposited data

Results flagged for a closer look

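The anti-EZH2/IgG ratio of Cidea pointed in opposite directions in the groups. It was 0.584 in Sham, 2.07 in AngII 4 h and 0.145 in AngII 24 h. The AngII 4 h/Sham ratio of Cidea was 0.444 with IgG and 1.57 with anti-EZH2, also in opposite directions. With 1 library per combination the differences between these ratios were not tested. The ratios rest on between 2 and 22 reads per library, and the interval of each except AngII 24 h anti-EZH2/IgG held 1. No group had the 4 libraries that a check for outlying libraries needs.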

How the results depend on the processing

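The 3 genes at 0 in all libraries, the 14 values above 0 and the 1 gene above 1 FPKM were the same in the table of the whole series. The median over the 8 genes, which genes without reads fix at 0, says nothing about stability. Counts of genes past 2-fold changed in 27 of 98 alternatives, in 26 of them by more than 1.5-fold. In the other, the genes lower in AngII 24 h/Sham (anti-EZH2) were 2 instead of 3 without mitochondrial genes. With a pseudocount of 1 they fell to 0 for genes lower in AngII 4 h/Sham (IgG), for both directions of AngII 4 h/Sham and AngII 24 h/Sham (anti-EZH2) and of Sham anti-EZH2/IgG, and for genes higher in AngII 24 h anti-EZH2/IgG. Where file intervals had to be apart, the same counts and that of genes lower in AngII 24 h anti-EZH2/IgG were 0. At 3-fold and without mitochondrial genes, the genes lower in AngII 4 h/Sham (IgG) and in Sham anti-EZH2/IgG were 0. The genes higher in AngII 4 h anti-EZH2/IgG were 1 instead of 0 with a pseudocount of 0.01, in the series table, after division by the median ratio and without mitochondrial genes, and those higher in AngII 24 h anti-EZH2/IgG were 2 instead of 1 without mitochondrial genes. Of the shares of all genes past 2-fold, 15 of 28 moved by more than 1.5-fold, and without the filter on low values they lay between 5.87% and 12.8%. The cause was not tested, except that stricter criteria leave fewer genes by construction. All alternatives set were run. Pairing anti-EZH2 and IgG by group, added after seeing the data, gave the sign-flip tests of Cidea above and of Ppara below. The labels give no replicate numbers to pair groups. The limit of 3 reads reached 1.17 FPKM (Retn) in a library.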

Other observations

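Of the other genes on the white and brown adipocyte lists, 26 had a mean FPKM above 1. No counting intervals were drawn for them. AngII 4 h/Sham was past 2-fold higher with both antibodies for 3 of the 26, Ppargc1a, Esrrg and Acly (4.98% of all 8632 genes). Ppargc1a, a coactivator of mitochondrial genes, measured 4.01 FPKM in Sham IgG, 15.2 in AngII 4 h IgG and 5.44 in AngII 24 h IgG. With anti-EZH2 it measured 4.27, 10.7 and 9.01 in the same groups. Its AngII 4 h libraries were the highest with each antibody. Acly, which makes acetyl-CoA in the cytosol, was past 2-fold higher in AngII 24 h/Sham with both antibodies as well, at ratios of 2.50 with IgG and 2.81 with anti-EZH2 (3.60% of all genes). Dgat1 and Gk were lower with both (3.71%), but in AngII 24 h anti-EZH2 they measured only 0.124 and 0.258 FPKM. The reads behind these low levels were not inferred. Both antibodies were used on tissue of the same mice of a group, and the lack of replicates holds here too.

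Ppara, a nuclear receptor that controls fatty acid oxidation, was past 2-fold higher with anti-EZH2 than with IgG in all 3 groups. It measured 3.10, 2.40 and 2.26 FPKM with IgG and 9.66, 8.65 and 7.26 with anti-EZH2, in the order Sham, AngII 4 h, AngII 24 h. The ratios were 3.11, 3.60 and 3.21, and the levels of the antibodies did not overlap. Of all 8632 genes 1.26% were past 2-fold higher in all 3 groups, and of the 26 genes Ppara was the one that was. Over the 3 groups as pairs, its mean difference was 1.68 ± 0.11 (log2, SD, n = 3 groups, higher in 3 of 3). The SD is over 3 different groups and is not a spread of replicates. Ppara was picked after its values were seen to be higher in all 3 groups. That choice fixed the exact two-sided sign-flip permutation p at 0.25, the smallest that 3 pairs allow. The test therefore gives no support, and no conclusion is drawn from it.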
